A study of Mus musculus with 468 samples.

Results

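The 9 transcripts described here belong to lipolysis, the breakdown of stored triglyceride in fat cells. They comprise the lipases Pnpla2, Lipe and Mgll, the lipase activator Abhd5, the lipid droplet protein Plin1, the lipase inhibitor G0s2, the adrenergic receptors Adrb3 and Adrb1, and the phosphodiesterase Pde3b. They were selected by gene symbol, and all 9 were found among the 23180 genes with deposited counts. Each of the 9 also passed the filter on low counts, which asked for 10 counts or more in 50% of libraries, as did 18380 genes in all.

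The adipose transcriptome was profiled in mice of the Diversity Outbred stock, an outbred population that segregates the genomes of several inbred founder strains, so that each mouse has a genotype of its own. Per the methods of the study the tissue was the gonadal fat pad, and every mouse, of either sex, ate a diet rich in fat and sugar (45 percent fat) up to harvest. The ages of the mice are not in the labels. No library came from a mouse on another diet, and the labels give neither sex, generation nor batch, so all libraries form 1 group and no comparison between groups of mice was made. Each mouse gave 1 library, so biological and technical spread cannot be separated.

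Lipolysis proceeds in steps. In the resting fat cell PLIN1 coats the droplet and holds ABHD5 away from the triglyceride lipase ATGL, the product of Pnpla2, while G0S2 inhibits ATGL directly. Noradrenaline acting on beta-adrenergic receptors raises cAMP and activates protein kinase A, which phosphorylates PLIN1 and hormone-sensitive lipase, the product of Lipe, so that ABHD5 is released and the lipases gain access to the droplet. Insulin opposes this, in part through PDE3B, which breaks cAMP down, and monoglyceride lipase, the product of Mgll, removes the last fatty acid from glycerol.

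Total expected counts per library ran from 35.3 M to 137.8 M, with a median of 82.04 M. All 18 adipocyte markers of a fixed list were detected in every library, and their summed level ranged from 17847 to 77188 CPM (counts per 1000000 counts, after scaling by the trimmed mean of M values, TMM). The 18 macrophage markers, also present in every library, summed to between 469.4 and 8618 CPM. In 28 libraries a list of skeletal muscle, pancreas, epididymis and seminal vesicle, or liver transcripts summed to over 5000 CPM, and in 1 of them the epididymis and seminal vesicle list reached 228840 CPM. In 20 libraries the TMM factor lay far from 1. Transcripts of 4 genes of the Y chromosome divided the libraries into 51.5% with at least 4504.6 counts and 48.5% with 0. A relation across all mice can rest on the distance between such sets. Many relations are therefore also given within them, and the others are given over all libraries only. The difference between the sets was not tested. In whole tissue, fewer fat cells and less RNA per fat cell cannot be told apart.

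Pnpla2, which encodes the lipase of the first step, lies on chromosome 7 (GRCm38, 141455198 to 141460743, plus strand). Lipe, the lipase of the second step, lies at 25379527 to 25398710 of the same chromosome (minus strand), and Plin1 at 79720218 to 79732903 (minus strand). Pde3b lies there as well, at 114415281 to 114539251 (plus strand). Mgll is on chromosome 6 (88724412 to 88828360, plus strand), Abhd5 on chromosome 9 (122351608 to 122381524, plus strand) and G0s2 on chromosome 1 (193272161 to 193273217, minus strand). Adrb3 is on chromosome 8 (27225776 to 27250616, minus strand) and Adrb1 on chromosome 19 (56722199 to 56733113, plus strand). All 9 are annotated as protein coding, and whether the counting used strand is not given in the sources used here. Overlapping genes can thus share reads with a member, and such genes are annotated for Lipe, Mgll, Abhd5, G0s2 and Adrb3.

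The table of RefSeq promoters (GRCm38.p6) held an entry for 7 of the 9 genes, and none for Adrb3 and Pde3b. The 250 bases before the start are shown for Pnpla2, Plin1 and both starts of Lipe, whose transcripts moved together across the mice, and for the inhibitor G0s2. Each is written 5′ to 3′ on the strand of the gene, and capitals mark matches on either strand to any of the short motifs named after the sequences.
Pnpla2, chr7:141454938-141455187, plus strand: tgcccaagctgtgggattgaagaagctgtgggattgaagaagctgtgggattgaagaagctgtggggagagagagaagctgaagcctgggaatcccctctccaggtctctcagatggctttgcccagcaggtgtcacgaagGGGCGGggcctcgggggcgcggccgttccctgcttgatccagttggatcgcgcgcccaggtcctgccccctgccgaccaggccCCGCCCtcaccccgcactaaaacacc
Lipe, upstream start, chr7:25395988-25396237, minus strand: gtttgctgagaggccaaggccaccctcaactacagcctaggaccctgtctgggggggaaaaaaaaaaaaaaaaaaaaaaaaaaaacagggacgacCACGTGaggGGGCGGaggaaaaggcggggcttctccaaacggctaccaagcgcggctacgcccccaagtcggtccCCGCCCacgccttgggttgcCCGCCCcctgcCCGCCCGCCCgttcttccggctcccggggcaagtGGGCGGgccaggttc
Lipe, downstream start, chr7:25390113-25390362, minus strand: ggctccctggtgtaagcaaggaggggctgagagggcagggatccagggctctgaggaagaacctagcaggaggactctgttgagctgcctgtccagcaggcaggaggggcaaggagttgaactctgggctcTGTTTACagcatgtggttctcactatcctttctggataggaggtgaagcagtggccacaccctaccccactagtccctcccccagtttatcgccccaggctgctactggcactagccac
Plin1, chr7:79732777-79733026, minus strand: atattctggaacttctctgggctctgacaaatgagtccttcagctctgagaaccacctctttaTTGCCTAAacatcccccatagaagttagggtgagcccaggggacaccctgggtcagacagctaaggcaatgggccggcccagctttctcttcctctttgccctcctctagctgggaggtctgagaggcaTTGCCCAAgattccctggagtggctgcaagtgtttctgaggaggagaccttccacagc
G0s2, chr1:193273189-193273438, minus strand: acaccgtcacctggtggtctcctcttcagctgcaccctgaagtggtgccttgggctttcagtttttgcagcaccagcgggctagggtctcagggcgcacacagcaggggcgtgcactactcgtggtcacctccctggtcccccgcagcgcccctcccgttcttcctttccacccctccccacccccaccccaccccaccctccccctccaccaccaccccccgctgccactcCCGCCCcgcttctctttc
The motif TTNNGCAA, read by C/EBP factors, occurred 2 times upstream of Plin1 and in none of the other 4 sequences, and 9.56% of the 32851 promoters in the table hold it. The GC box GGGCGG occurred 6 times upstream of the first Lipe start, where some matches overlap, 2 times for Pnpla2 and 1 time for G0s2, and 32.7% of all promoters hold it. The E-box CACGTG was present at the upstream Lipe start (6.02% of promoters) and the FoxO motif GTAAACA at the downstream one (3.17%). The nuclear receptor half-site AGGTCA (14% of promoters), the cAMP response element TGACGTCA (1.55%) and CCAAT (33.8%) matched none of the 5 sequences. A match is a description of the letters in this window, and binding was not measured.

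Among the lipases, Pnpla2 ranged from 635.5 CPM in its lowest library to 4360 CPM in its highest, with a median of 2163 CPM. Lipe ranged from 457.3 to 2410 CPM (median 1446), and Mgll from 677.6 to 2511 CPM (median 1555). Between the 5th and the 95th percentile of mice, Pnpla2 spanned 3.26-fold, Lipe 2.21-fold and Mgll 2.02-fold. Pnpla2 thus varied most among the 3 lipases.

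Abhd5, the co-activator of ATGL, ranged from 66.9 to 541.5 CPM (median 165.2). Plin1 ranged from 573.4 to 2519 CPM (median 1482) and was the least variable of the 9 by its coefficient of variation, 20.2% of the mean. G0s2 ranged from 4.10 to 325.8 CPM (median 101.5), a 79.4-fold span. Its lowest library, DO349, lay well below the next, at 17.9 CPM, and without it the span was 18.2-fold, and the 5th to 95th percentile span was 4.38-fold.

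On the log2 scale the receptors were the most variable members. Adrb3, the main beta-adrenergic receptor of rodent fat cells, ranged from 43.3 to 1228 CPM (median 519.2), and its log2 values were skewed towards low levels (skewness −1.30). Adrb1 ranged from 0.778 to 23.4 CPM (median 4.001). Even so, its counts ran from 59 to 1936 per library, and counting noise made up 0.729% of its variance between mice. Pde3b ranged from 113.2 to 867 CPM (median 389.4).

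Levels of different genes were compared per kb of exon. Pnpla2 led with a median of 716 CPM per kb, and it exceeded Plin1, next at 318.8, in every mouse. Plin1 and Mgll (306.3) were not separable, since Plin1 was the higher of the pair in 56.6% of mice. Mgll exceeded Lipe (245.6) in 84.6% of mice and Lipe exceeded Adrb3 (153.8) in 98.3%. Adrb3 and G0s2 (116.5) also overlapped widely, with Adrb3 higher in 57.9% of mice. G0s2 was above Pde3b (42.7) in 95.3% of mice, Pde3b above Abhd5 (27.7) in 91.5%, and Abhd5 above Adrb1 (1.18) in every mouse. With the longest annotated transcript as the length the order of the 9 medians was the same, but Mgll (389.6) and Lipe (389.4) were then level, and Plin1 stood at 526.1.

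**Figure D1:**
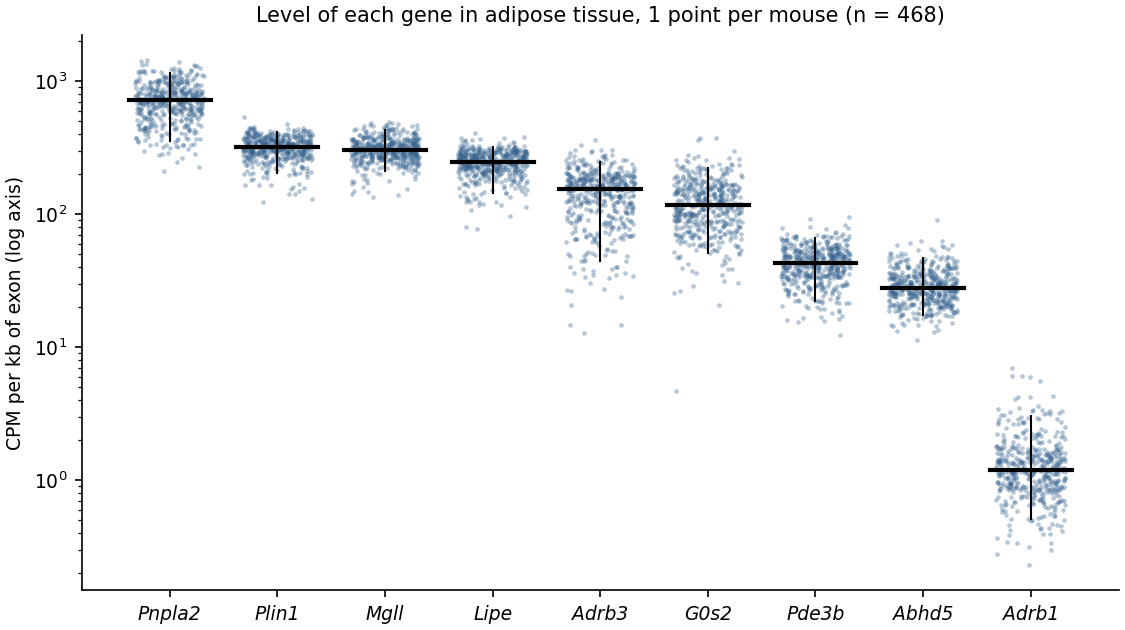
Level of each of the 9 genes in each mouse, as CPM per kb of exon on a log axis, ordered by median. Thick bars are medians and thin lines span the 5th to the 95th percentile. Pnpla2 sits highest with a median of 716 CPM per kb and Adrb1 lowest with 1.18, and the clouds of Plin1 and Mgll, and of Adrb3 and G0s2, overlap.

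On the log2 scale the SD between mice was 0.77 for Adrb3, 0.75 for Adrb1 and 0.70 for G0s2. It was 0.51 for Pnpla2, 0.48 for Pde3b, 0.44 for Abhd5, 0.35 for Lipe, 0.32 for Plin1 and 0.31 for Mgll, beside a median of 0.27 over the 9508 genes that averaged 10 CPM or more. Adrb3 varied more than 92.8% of those genes and Mgll more than 58.6%. The dispersion of the count model gave the same picture, with a biological coefficient of variation of 0.515 for Adrb1, 0.472 for Adrb3, 0.444 for G0s2 and 0.213 for Mgll. The receptors and the inhibitor therefore varied most, and the droplet protein and the last lipase least.

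Individual mice show how far the members can part. Mouse DO349 had the lowest G0s2 (4.10 CPM) and Adrb1 (0.778 CPM) and at the same time the highest Pde3b (867 CPM). Its Pnpla2, at 3783 CPM, was the 10th highest of all mice, whereas its Plin1 (660 CPM) and Mgll (717 CPM) were each the 3rd lowest. Its Lep, the adipocyte hormone leptin, stood at 0.716 CPM, the lowest of all mice, beside a median of 1128 CPM. This library also held 10512 CPM of the liver list, and the part of that in these values was not tested. Over all libraries that list had a median of 1525 CPM and a highest value of 10989 CPM.

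In mouse DO200 the members were low together. It had the lowest Pnpla2 (635.5 CPM), Lipe (457.3 CPM) and Plin1 (573.4 CPM), and Adrb3, at 49.9 CPM, was the 3rd lowest. Its macrophage score was the 2nd highest and its adipocyte score the 2nd lowest of all mice. Mouse DO512 was the opposite, with the highest Lipe (2410 CPM), Plin1 (2519 CPM) and Adrb1 (23.4 CPM) and an Adrb3 of 1029 CPM. Its G0s2 was 88.6 CPM, below the median, and the library held 6229 CPM of the liver list. Mouse DO169 held the highest Pnpla2 (4360 CPM) and Abhd5 (541.5 CPM), while its Plin1 (1324 CPM) was below the median, and the library held 10945 CPM of the liver list. The part of the liver transcripts in the values of DO512 and DO169 was not tested. The lowest Mgll and Pde3b belonged to DO283, the library with 228840 CPM of epididymis and seminal vesicle transcripts.

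Across the mice all 36 pairs of members were positively correlated (Pearson r of log2 CPM, from 0.13 to 0.89, median 0.47), each with an adjusted p under 0.05 from limma over all genes tested. In 33 of the 36 pairs the 2-sided permutation p was 1e-05, the smallest that 100000 resamples can give. Such calls were common, since many genes of this tissue varied together. The share of all tested genes with a positive call was 37.9% for Pnpla2, 36.4% for Lipe, 25.2% for Mgll, 34.7% for Abhd5, 34% for Plin1, 28.8% for G0s2, 36.5% for Adrb3, 28.5% for Adrb1 and 37.6% for Pde3b. The size of r and its rank among 18379 genes therefore carry more than the call. The TMM factor of a library was itself negatively related to each member (r of its log2 value from −0.70 for Pnpla2 to −0.29 for Mgll). Scaled by the total count alone, 33 pairs were positive, 28 of them called, with a median r of 0.32, and Mgll with Abhd5, Abhd5 with G0s2 and G0s2 with Pde3b turned negative.

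Lipe and Plin1 had the highest r of all pairs (r = 0.89, rho = 0.84, permutation p = 1e-05), and each ranked number 1 among all tested genes for the other. Pnpla2 and Pde3b followed (r = 0.87, rho = 0.85, permutation p = 1e-05), with Pde3b at rank 6 for Pnpla2 and Pnpla2 at rank 2 for Pde3b. Pnpla2 and Lipe reached r = 0.83 and Lipe and Pde3b r = 0.81. For Adrb3 the first gene of all was Lipe (r = 0.80, rho = 0.73, permutation p = 1e-05), and Adrb3 was at rank 16 for Lipe.

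These pairs held within the sets of libraries, at different strength. Lipe with Plin1 gave r = 0.93 in libraries with Y counts and 0.81 in those without, and Pnpla2 with Pde3b gave 0.89 and 0.83. For Pnpla2 with Plin1 (r = 0.65 in all) the values were 0.77 and 0.41, and for Adrb3 with Pnpla2 (r = 0.73 in all) they were 0.85 and 0.48. In 5 blocks of consecutive mouse numbers Lipe with Plin1 stayed between 0.87 and 0.90, and in 5 blocks of library numbers between 0.85 and 0.93. Leaving out the 2 mice farthest from the median of Lipe gave 0.88.

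Abhd5 was closest to Pnpla2, the lipase that its protein activates (r = 0.67, rho = 0.67, permutation p = 1e-05), and next to Pde3b (r = 0.60). Within the sets the first pair gave 0.55 with Y counts and 0.68 without, and the second 0.52 and 0.64. Its r with Plin1, the protein that binds ABHD5 at rest, was 0.39. Mgll correlated most with Plin1 (r = 0.50) and Lipe (r = 0.47) and least with Abhd5 (r = 0.17, permutation p = 0.00026). Adrb1 reached r = 0.50 with Lipe and 0.41 with Adrb3 (rho = 0.34, permutation p = 1e-05).

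Over all libraries G0s2 had the lowest r with the first component of the 9 transcripts (0.46), which was not so in libraries without Y counts (0.57, beside 0.55 for Mgll). Its highest r was with Plin1 (0.56, rho = 0.56, permutation p = 1e-05), and this held in libraries with Y counts (0.43) and without (0.66). With its target lipase Pnpla2 the r was 0.26 over all mice but 0.073 in libraries with Y counts and 0.18 in those without. With Abhd5 the r was 0.16 over all mice (permutation p = 0.00086), −0.078 with Y counts and 0.068 without, so the pooled relation did not hold within either set. With Pde3b it was 0.13 (permutation p = 0.00341), 0.083 with Y counts and −0.0056 without, and again did not hold within the sets. G0s2 with Adrb1 gave 0.076 with Y counts and 0.54 without.

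**Figure D2:**
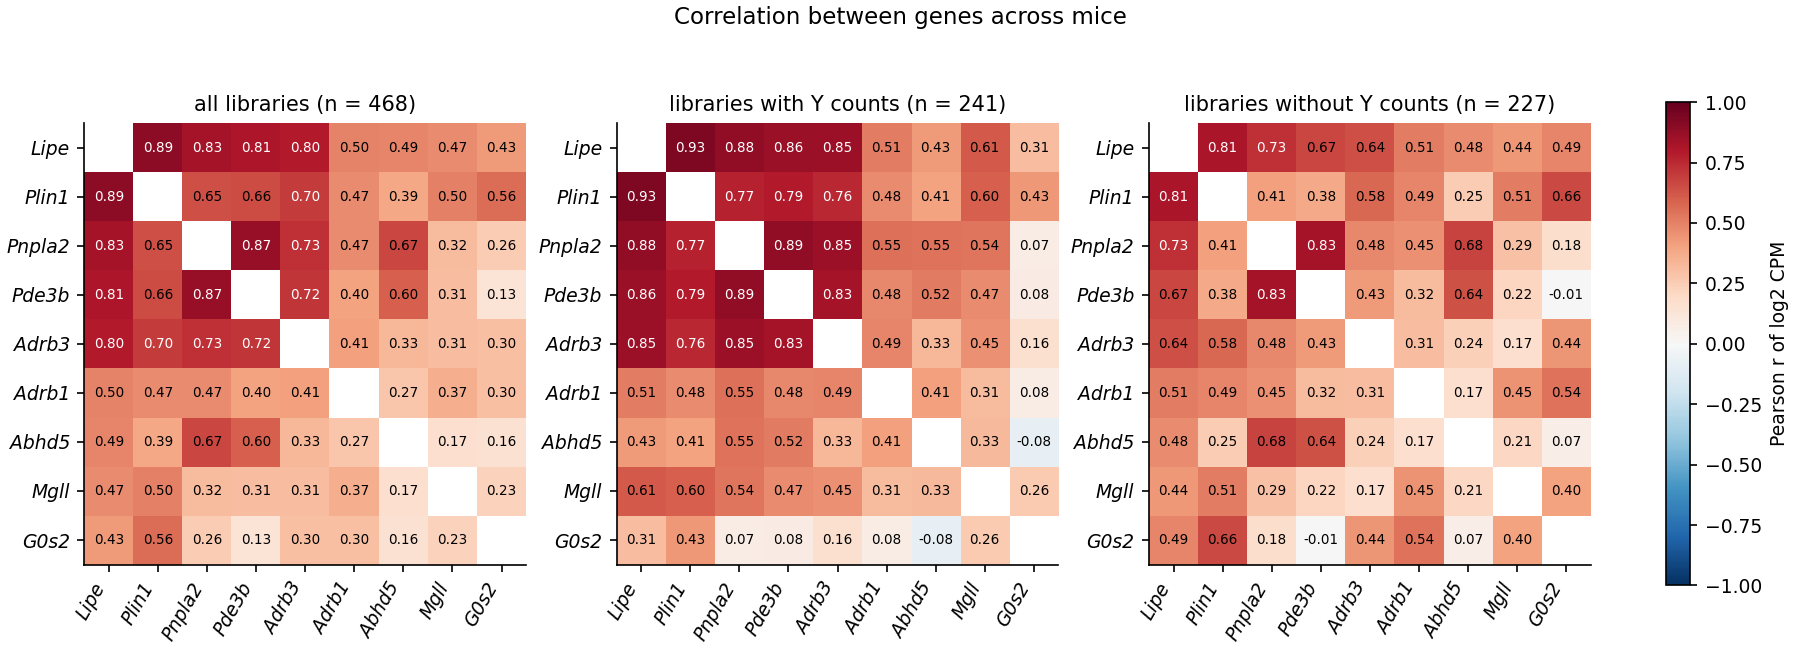
Pearson r of log2 CPM for each pair of the 9 genes over all libraries (left), those with Y chromosome counts (middle) and those without (right), with red for positive and blue for negative values. Lipe, Plin1, Pnpla2, Pde3b and Adrb3 form the darkest block in the left and middle panels, where most of the row of G0s2 is pale. In the right panel that block is paler, with r = 0.38 for Plin1 and Pde3b, and G0s2 reaches 0.66 with Plin1.

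**Figure D3:**
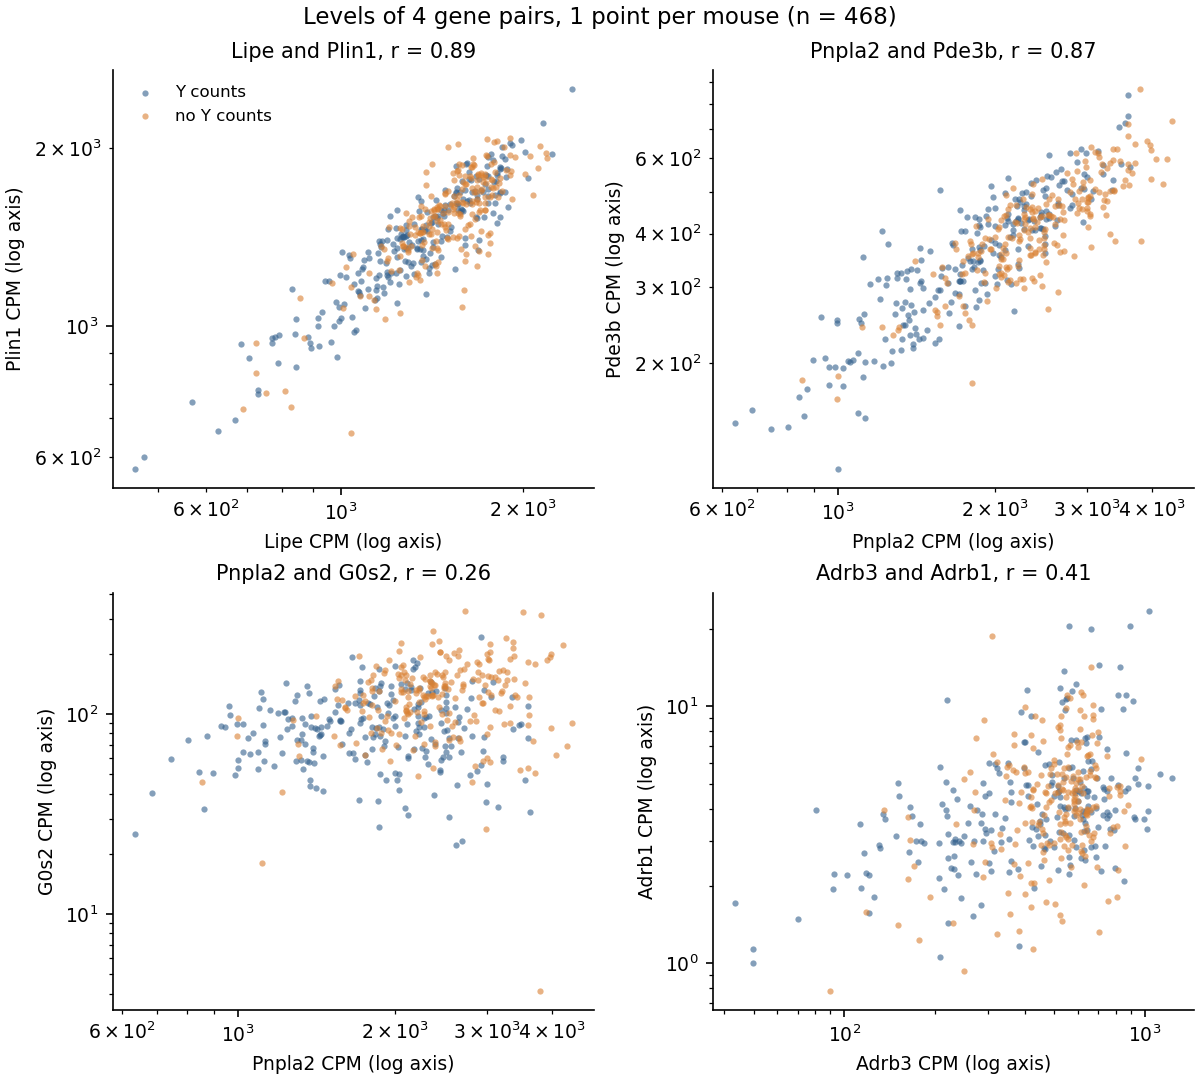
CPM of 4 gene pairs in each mouse on log axes, with blue for libraries with Y chromosome counts and orange for those without. Lipe and Plin1 (r = 0.89) and Pnpla2 and Pde3b (r = 0.87) follow narrow diagonals, whereas Pnpla2 and G0s2 (r = 0.26) and Adrb3 and Adrb1 (r = 0.41) scatter broadly.

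A principal component analysis described the same structure. The first component held 56.8% of the variance of the 9 standardised transcripts and the second 13.2%. Lipe had r = 0.95 with the first component, Pnpla2 0.89, Plin1 0.88, Pde3b 0.86 and Adrb3 0.82, while G0s2 had 0.46 and Mgll 0.52. On the second component G0s2 (r = 0.64), Mgll (0.43) and Plin1 (0.27) lay opposite to Abhd5 (−0.47), Pde3b (−0.37) and Pnpla2 (−0.31). The first component held 60.3% of the variance in libraries with Y counts and 50.7% in those without.

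The next question was how the members followed the cell makeup of the tissue, measured by the mean standardised level of fixed marker lists. All 9 correlated positively with the adipocyte score, which contains no member, with adjusted p under 0.05 (34.9% of all tested genes were so called). Lipe (r = 0.88) and Plin1 (0.85) were closest to it, then Pde3b (0.77), Pnpla2 (0.76) and Adrb3 (0.71). Mgll (0.57), Abhd5 (0.52), G0s2 (0.43) and Adrb1 (0.39) were less so. All 9 also correlated positively with it within both sets of libraries, the lowest being 0.32 for Adrb1 without Y counts.

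Removing the adipocyte score by regression left 19 of the 36 pairs positive and called, 7 negative and called, and the median r at 0.14. What share of all tested genes is called after this removal was not computed. Pnpla2 with Pde3b then had the highest value (r = 0.68), followed by Lipe with Plin1 (0.58), Pnpla2 with Lipe (0.53) and Lipe with Adrb3 (0.52). Plin1 with G0s2 remained at 0.40 and Pnpla2 with Abhd5 at 0.49. Pnpla2 with Plin1 fell to 0.012. G0s2 with Pde3b became −0.34 and Mgll with Pde3b −0.24. At the same fat cell score, mice with more Pnpla2 thus had more Pde3b and Abhd5, and G0s2 went with Plin1.

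Against the macrophage score 8 of 9 members were negative and called, beside 40.9% of all tested genes. The values were −0.73 for Pnpla2, −0.69 for Pde3b, −0.67 for Lipe, −0.65 for Adrb3, −0.55 for Plin1, −0.45 for Abhd5, −0.36 for Adrb1 and −0.31 for G0s2 (each with a permutation p of 1e-05). Mgll was not called over all mice (r = −0.071, permutation p = 0.127, limma adjusted p = 0.150). Within the sets its r was −0.22 with Y counts and −0.12 without. Over all mice it turned to 0.25 when libraries were scaled by the total count alone. For Pnpla2 the relation was also present within the sets, −0.67 with Y counts and −0.66 without. For G0s2 it was −0.068 with Y counts and −0.30 without. Adgre1, the macrophage surface marker F4/80, gave r = −0.70 with Pnpla2 and −0.061 with Mgll over all mice. The value for Mgll was −0.20 with Y counts and −0.11 without. The macrophage and adipocyte scores were themselves related (r = −0.56), so these relations are not independent of those above.

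With a score of 21 oxidative phosphorylation genes, the nuclear-encoded subunits of the respiratory chain, 8 of 9 members were positive and called (38.3% of all tested genes). Pnpla2 was highest (r = 0.74, rho = 0.78), then Abhd5 (0.64), Pde3b (0.60) and Lipe (0.60). Abhd5 was thus closer to this score than to the adipocyte score, as were G0s2 (0.48 against 0.43) and, by little, Adrb1 (0.40 against 0.39) over all mice. G0s2 gave 0.48 over all mice but 0.15 with Y counts and 0.42 without. Mgll was again not called over all mice (r = 0.087, permutation p = 0.0596, limma adjusted p = 0.0715), yet gave 0.41 with Y counts and 0.26 without. The oxidative phosphorylation score was itself related to the macrophage score (r = −0.72) and the adipocyte score (r = 0.50). These relations are thus not independent of those above.

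The score of brown and beige fat markers, thermogenic genes such as Ucp1, gave different values in the sets of libraries. Over all mice 8 of 9 members were positive and called (36.4% of all tested genes), from 0.22 for Adrb3 to 0.55 for Pnpla2. Scaled by the total count alone 5 were called, and with the macrophage score removed 4, where Adrb3 turned to −0.23. In libraries without Y counts the r rose to 0.70 for Pnpla2, 0.70 for Adrb1, 0.63 for Lipe and 0.60 for Pde3b. In libraries with Y counts it was −0.0053 for Pnpla2, 0.11 for Adrb1, −0.016 for Lipe and −0.012 for Pde3b. There 1 member, Abhd5 (r = 0.25), was called. For these alternatives and subsets the share of all tested genes called was not computed. Ucp1 itself lay between 0.0573 and 4514 CPM (median 12.6), and its r with Adrb1 was 0.68 without Y counts and 0.12 with them. Whether the sets differ was not tested. The brown and beige score was closely related to the oxidative phosphorylation score (r = 0.91), so its relations are not independent of those above.

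All 9 members were negative and called with the score of adipocyte progenitor markers (36.5% of all tested genes), from −0.18 for G0s2 to −0.48 for Lipe. With the macrophage score removed 3 of 9 were negative and called, and Adrb3 became positive (r = 0.16), but the share of all tested genes so called was not computed. Among the lists for endothelial, T, B and mesothelial cells the r values over all mice ran from −0.41 for Abhd5 with the B cell score to 0.42 for Mgll with the endothelial score. The first gave −0.31 with Y counts and −0.39 without, and the second 0.48 and 0.28. Not all relations to these lists held, since Lipe with the endothelial score gave 0.62 with Y counts and −0.057 without.

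**Figure D4:**
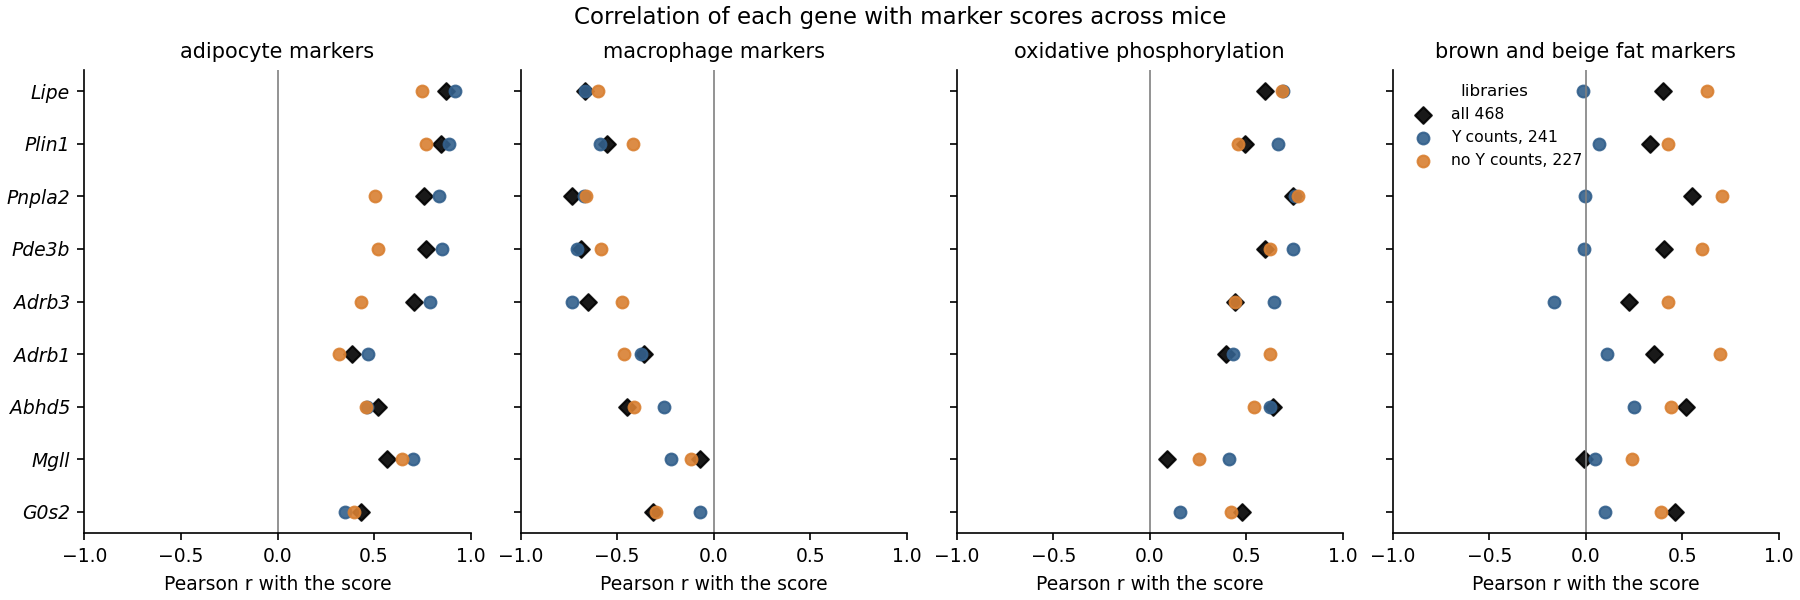
Pearson r of each of the 9 genes with 4 marker scores, for all libraries (diamonds), those with Y chromosome counts (blue) and those without (orange). The adipocyte values are all positive, the macrophage values all negative, with Mgll at −0.071 in all libraries, and in the brown and beige panel the blue points run from −0.17 for Adrb3 to 0.25 for Abhd5 and the orange points from 0.24 for Mgll to 0.70.

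Differences of log2 CPM within a library do not depend on how libraries were scaled, and 6 such balances were examined with 3 scores (18 relations). The balance of inhibitor to lipase, G0s2 minus Pnpla2, had a median of −4.28 and ran from −9.84 in DO349 to −3.06 in DO367, a 110-fold range with an SD of 0.75. Without DO349, an alternative added after seeing the data, the range was 14.2-fold, and the 5th to 95th percentile span was 5.11-fold. The balance of the receptors, Adrb1 minus Adrb3, had a median of −6.81 and an SD of 0.82, larger than the SD of either receptor alone (0.75 and 0.77). In contrast, Lipe minus Pnpla2 had a median of −0.56 and an SD of 0.29, smaller than that of either lipase. The receptors thus varied largely apart from each other, and the first 2 lipases largely together.

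Lipe minus Pnpla2 fell with the oxidative phosphorylation score (r = −0.57, rho = −0.59, permutation p = 1e-05, adjusted over the 18 relations 1.38e-05), and it did so with Y counts (−0.46) and without (−0.42). It rose with the macrophage score (r = 0.47, 0.34 with Y counts and 0.36 without). Mgll minus Lipe rose with the macrophage score (r = 0.62, rho = 0.59, permutation p = 1e-05), with 0.59 and 0.44 within the sets. Abhd5 minus Pnpla2 also rose with it (r = 0.44, 0.54 with Y counts and 0.32 without). Mice with a high macrophage score thus had more Mgll relative to Lipe, and more Abhd5 relative to Pnpla2. The macrophage and oxidative phosphorylation scores were themselves related (r = −0.72), so the relations of a balance to each are not independent.

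The receptor balance gave r = 0.28 with the macrophage score over all mice, but 0.45 with Y counts and −0.11 without, so it did not hold within the second set. Its relation to the adipocyte score was −0.31 over all mice, −0.43 with Y counts and 0.00035 without. G0s2 minus Pnpla2 with the macrophage score gave 0.20 over all mice, 0.40 with Y counts and 0.084 without. Plin1 minus Abhd5 gave −0.29 with the oxidative phosphorylation score, −0.070 with Y counts and −0.20 without.

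The members were next set against 86 other genes of the pathway and of its control, of which 85 passed the filter. With Pnpla2, 56 were positive and called and 22 negative and called, beside 37.9% and 42.8% of all tested genes. The list leaned to positive r for each member (medians from 0.17 for Mgll and G0s2 to 0.38 for Pnpla2), whereas the median over all tested genes was close to 0 for each, −0.023 for Pnpla2. Of the insulin receptor and its signalling genes 8 of 9 were positive and called for Pnpla2, Lipe, Plin1, Adrb3, Adrb1, Abhd5 and Pde3b. Beside these stand 28.5% (Adrb1) to 37.9% (Pnpla2) of all tested genes. For Mgll 5 of 9 were positive (25.2% of all tested genes), and for G0s2 6 positive (28.8%) and 3 negative. For Mgll and G0s2 the genes that handle the products were positive in 10 of 11. Regulators of transcription were positive for Pnpla2 in 10 of 12 and negative in none. Of the receptors and G proteins that oppose lipolysis 4 of 9 were positive for Pnpla2 and 4 negative, near the shares of all tested genes (37.9% and 42.8%).

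Named genes of these lists fill in the picture. Fitm2, an endoplasmic reticulum protein of droplet formation, was the list gene closest to Pnpla2 (r = 0.85), Lipe (0.78), Abhd5 (0.73) and Pde3b (0.86). Pck1, the enzyme of glyceroneogenesis that supplies glycerol for re-esterification and one of the adipocyte markers, gave r = 0.82 with Pnpla2 and 0.76 with Lipe. Ces1d, a further triglyceride hydrolase, gave 0.83 with Pnpla2, 0.81 with Pde3b and 0.73 with Adrb3. Insr, the insulin receptor, gave 0.82 with Pde3b, the enzyme through which insulin lowers cAMP. All of these passed limma over all genes.

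For Adrb3 the closest list gene was Hcar1 (r = 0.76), the lactate receptor that restrains lipolysis, with 0.81 with Y counts and 0.70 without. Npr2, a natriuretic peptide receptor, gave 0.75 over all mice, 0.84 with Y counts and 0.38 without. Adrb1 was closest to Akap1 (0.49), an anchor of protein kinase A at mitochondria, and Akt2 (0.48). For G0s2 the closest list genes were the lipogenic regulator Srebf1 (r = 0.64), Cebpa (0.63) and Akt2 (0.60), which gave 0.66, 0.78 and 0.78 with Plin1. Of these Cebpa is on the list of adipocyte markers. Mgll was closest to Fabp4 (0.59), Cidec (0.56) and Aqp7 (0.55), all of them on the list of adipocyte markers. With Y counts these gave 0.68, 0.69 and 0.54, and without them 0.62, 0.32 and 0.53.

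The list genes with the lowest r were mostly shared, and they rose with the macrophage score (r = 0.90 for Daglb, 0.80 for Gnai2 and 0.79 for Lipa), whose part in these values was not tested. Daglb, a diacylglycerol lipase, gave −0.66 with Pnpla2, −0.63 with Pde3b and −0.57 with Lipe, and Gnai2, an inhibitory G protein subunit, gave −0.67 with Pnpla2 and −0.59 with Pde3b. Lipa, the lysosomal acid lipase, gave −0.64 with Adrb3 over all mice, −0.72 with Y counts and −0.30 without. Its relation to Pde3b, −0.55 over all mice, was −0.66 with Y counts and −0.065 without.

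Leptin, which rises with fat mass and is itself on the list of adipocyte markers, was lower where Pnpla2 (r = −0.61, −0.50 with Y counts and −0.58 without) and Pde3b (−0.57) were high. Its r was −0.36 with Lipe and 0.29 with Mgll, the reverse sign. Over all mice Fasn, fatty acid synthase, was positive with Pnpla2 (0.60), Abhd5 (0.60) and Lipe (0.52) and near 0 with Mgll (0.060). With Y counts the values were 0.35, 0.39, 0.40 and 0.38, and without them 0.64, 0.58, 0.64 and 0.13. Mgll was thus positive with Fasn within each set.

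Among the 9498 other genes that averaged 10 CPM or more, Sik2 had the highest r with 3 members. This salt-inducible kinase, abundant in fat cells and a substrate of protein kinase A, gave 0.89 with Pnpla2 (0.89 with Y counts and 0.82 without), 0.88 with Pde3b (0.90 and 0.86) and 0.78 with Adrb3 (0.88 and 0.60). For Lipe it was second (0.85), after Vegfb (0.86), a growth factor of the vascular endothelial family. Aldh6a1 (0.88) and Hibadh (0.88), both enzymes of valine breakdown, completed the first 3 for Pnpla2. For Plin1 the first were Blcap (0.79), Cebpa (0.78), a master regulator of fat cell differentiation, and Akt2 (0.78).

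Among the other members, G0s2 went with Irs3 (r = 0.66) and Rxrg (0.65), and against Foxo3 (−0.65), a forkhead factor that insulin signalling restrains. The Foxo3 value was −0.60 with Y counts and −0.66 without. Abhd5 went with Zfand6 (0.73), Fitm2 (0.73), which was closer still to Pde3b, and Pcx (0.73), which encodes pyruvate carboxylase. Mgll went with March2 (0.69) and Rab1b (0.65), and against the ribosomal protein gene Rpl3 (−0.58). Adrb1 went with Spg7 (0.58), Idh2 (0.57) and Dhrs4 (0.56), of which Idh2, a mitochondrial dehydrogenase, gave 0.41 with Y counts and 0.74 without.

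At the low end Ttyh3 was common to Pnpla2 (−0.86), Pde3b (−0.86) and Lipe (−0.81). Plxnb2, a semaphorin receptor, was the lowest for Lipe (−0.81) and Plin1 (−0.71). For Adrb3 they were Tpd52 (−0.72) and Tpcn2 (−0.71).

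Lipe, Plin1, Pde3b and Pnpla2, the 4 members on chromosome 7, made up 6 of the 36 pairs, with r from 0.65 to 0.89. The genes are far apart, with gaps of 54.3, 34.7 and 26.9 megabases. The median r of Pnpla2 with the 1465 other tested genes of the chromosome was −0.0014, beside −0.025 with the 16914 genes elsewhere, and the 95th percentiles were 0.63 and 0.64.

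The nearest tested genes were more varied. Adrb3 and Eif4ebp1, 9713 bases away, gave r = 0.72 (0.81 with Y counts and 0.45 without), and Plin1 and Pex11a, 3054 bases away, gave 0.69 (0.76 and 0.61). Pnpla2 and Rplp2, 3613 bases away, gave 0.60. Lipe and 4732471J01Rik, an antisense gene that overlaps it, gave 0.79, and reads of one could have been counted for the other. G0s2 and Hsd11b1, 8086 bases away, gave 0.085, and Plin1 and Kif7, 4498 bases away, −0.0013.

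The only numbers that the labels give for a mouse are its own number, from 21 to 560, and that of its library. In the edgeR quasi-likelihood fit 3 of 9 members were associated with mouse number after adjustment over all 18380 genes, of which 23.7% were called. G0s2 rose by 0.069 ± 0.020 (SE) on the log2 scale per 100 mice (adjusted p = 0.00649), with a median of 82.9 CPM in the first block of mouse numbers and 113.5 CPM in the last. Adrb1 rose by 0.068 ± 0.024 (adjusted p = 0.0240). Pde3b fell by 0.055 ± 0.014 (adjusted p = 0.00148), from a median of 429.5 to 332.1 CPM. Pnpla2 had a slope of −0.036 ± 0.015 and was not called (adjusted p = 0.0587). It was called in 1 of the 9 fits, without the libraries of a far TMM factor (−0.039, adjusted p = 0.0395), and its slope was −0.0044 with Xist and Y-linked genes added.

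The share of members called was near that of all genes, and what mouse number stands for is not given in the labels. G0s2 was called in each of the 9 fits that were run, with slopes from 0.060 to 0.10. Adrb1 was not called without the 28 libraries with transcripts of other tissues (0.051, adjusted p = 0.110) or by limma (0.050, adjusted p = 0.0849). Pde3b was not called once Xist and Y-linked genes entered the model (−0.035, adjusted p = 0.0712). Of the 85 pathway genes 13 rose and 16 fell with mouse number, beside 2149 rising and 2213 falling of all 18380 genes (23.7% in either direction). No member was associated with library number by edgeR, for which 0.267% of all genes were called. Adrb1 alone had an unadjusted p under 0.05 there (slope −0.056 ± 0.025, adjusted p = 0.513), and limma and DESeq2 called no member.

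**Figure D5:**
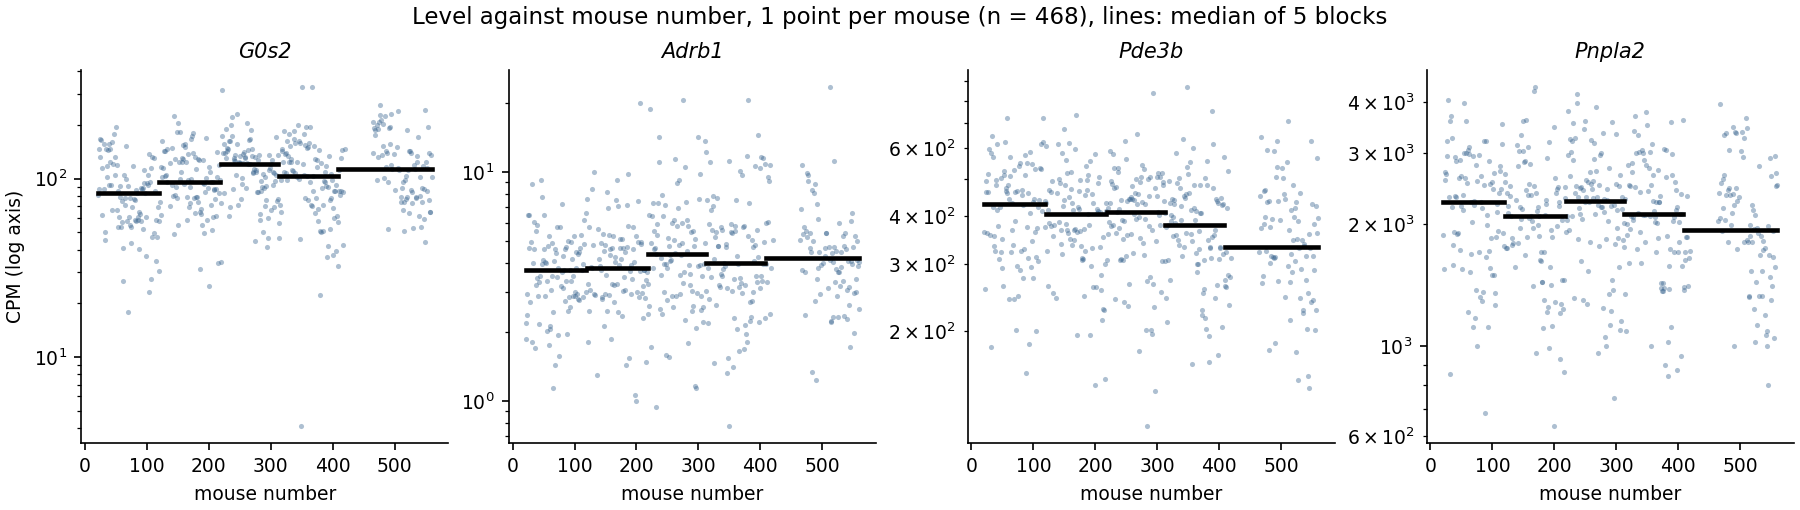
CPM of G0s2, Adrb1, Pde3b and Pnpla2 on a log axis against the number of the mouse, 1 point for each mouse, with bars for the medians of 5 blocks of consecutive mouse numbers. The median of G0s2 is 82.9 CPM in the first block and 113.5 in the last and that of Pde3b 429.5 and 332.1, and the points of each block overlap widely with those of the others.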

How the data were processed

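Adipose RNA of 468 mice was sequenced, with 1 library for each mouse, of which 241 held Y chromosome counts and 227 did not. A TMM factor below 0.8 or above 1.25 was taken as far from 1. The expected counts were deposited by the authors as estimated counts per gene, made per the methods of the study with EMASE within GBRS on reads aligned to transcriptomes of the founder strains, after removal of weakly detected transcripts. The deposited log2 values are a variance stabilizing transformation made by the authors with DESeq2, for which the methods also describe a batch correction, and they served only as an alternative. The build is GRCm38 per the labels, and the sources used here give no versions of these tools. Of the expected counts 66.78% were whole numbers. Every sample column was mapped to a labelled mouse.

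Counts were scaled with TMM and expressed as log2 CPM with a prior count of 2 (R 4.3.3, edgeR 4.0.16). Genes with at least 10 counts in at least 50% of libraries were tested. Each member or score was fitted against all genes with limma 3.58.1, with Benjamini-Hochberg adjustment, and single r values were tested by permutation with 100000 resamples. Counts rounded to whole numbers were tested against mouse and library number with the edgeR quasi-likelihood test. A score is the mean standardised log2 CPM of a fixed marker list, without the members. The edgeR and limma steps were run on simulated counts, whose genes lacked the wide co-variation of these data. The simulated slopes were larger than those of the members in the main fit, so recovery of slopes as small as these was not tested. Alternatives were other scalings, filters and prior counts, the log2 values of the authors, removal of scores or of Xist and Y chromosome genes, subsets and blocks of libraries, limma and DESeq2 1.42.0. The members and lists were chosen with earlier results of these data known. Named are all members, the list genes with the 3 highest and 3 lowest r for a member, Lep, Ucp1, Fasn and Adgre1, for each member the 3 highest and 2 lowest partners among other genes averaging 10 CPM or more, and the nearest tested gene on each side. A partner of G0s2 and one of Mgll are not reported here.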

Additional observations from a re-analysis of the deposited data

How the results depend on the processing

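Of 200 recomputed values that answer a comparison 13 moved, and of 2247 recomputed single values 2044 kept direction and call or moved little, 5.47% lost the call, 17 gained it, 62 changed sign and 1, the range of G0s2 minus Pnpla2 without DO349, moved to 14.2-fold. The cause was not tested for any of them. For pairs and scores the share of all tested genes called was computed in the main setting only. No paired analysis was possible because all mice form 1 group with no replicate numbers shared between groups. The labels give no generation or batch, so their part cannot be told apart from the differences between mice. Sex is not in the labels either, but the libraries with and without Y counts match in number the males and females that the study lists. Counting depth limited Adrb1 most.

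Scaling by the total count alone gave r of −0.065 for Mgll with Abhd5, −0.060 for Abhd5 with G0s2 and −0.083 for G0s2 with Pde3b. Removing Xist and Y chromosome genes gave −0.0047 for Abhd5 with G0s2. With the adipocyte score removed 19 pairs were positive and called. Mgll then gave −0.21 with Pnpla2, −0.058 with Lipe, −0.18 with Abhd5, −0.020 with G0s2, −0.16 with Adrb3 and −0.24 with Pde3b. Abhd5 gave −0.12 with Plin1, −0.092 with G0s2 and −0.067 with Adrb3, and G0s2 gave −0.12 with Pnpla2, −0.0081 with Adrb3 and −0.34 with Pde3b. G0s2 with Pde3b was −0.12 with the macrophage score removed, −0.0056 without Y counts, −0.031 in library block 5 and −0.049 in mouse block 1. Abhd5 with G0s2 was −0.078 with Y counts and −0.070 in mouse block 4.

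Mgll with the macrophage score became 0.25 under the total count, 0.36 with the adipocyte score removed, 0.15 in library block 5 and 0.0088 in mouse block 3. Mgll with the oxidative phosphorylation score became −0.35, −0.27 and −0.051 in the first 3 of these settings, and Adrb3 with that score −0.056 with the macrophage score removed. The relations to the brown and beige and the progenitor scores, and the balances within the sets, were added after seeing the data. Members called with the brown and beige score numbered 5 under the total count, 4 with the macrophage score removed and 1 with Y counts. That score gave −0.033 for Plin1 under the total count and −0.23 for Adrb3 with the macrophage score removed. With Y counts it gave −0.0053 for Pnpla2, −0.016 for Lipe, 0.048 for Mgll, −0.17 for Adrb3 and −0.012 for Pde3b. For Mgll it gave 0.16 with Xist and Y chromosome genes removed, 0.24 without Y counts, 0.15 and 0.0023 in library blocks 2 and 4, and 0.019 and 0.0095 in mouse blocks 1 and 2. Members called with the progenitor score numbered 3 with the macrophage score removed and 5 in each of library blocks 2, 4 and 5. That score gave 0.13 for Mgll under the total count, 0.0087 for Pnpla2, 0.013 for G0s2 and 0.16 for Adrb3 with the macrophage score removed, and 0.050 for G0s2 in mouse block 1.

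The slopes on mouse number with Xist and Y chromosome genes added were 0.0058 for Lipe, 0.0026 for Abhd5 and 0.0082 for Plin1, and with the adipocyte score added 0.0063 for Lipe and 0.010 for Plin1. The slopes on library number without libraries of a far TMM factor were 0.012 for Pnpla2, 0.0011 for Lipe and 0.00063 for G0s2. Without Y counts the receptor balance gave −0.11, 0.00035 and 0.29 with the macrophage, adipocyte and oxidative phosphorylation scores. There G0s2 minus Pnpla2 gave 0.096 and Lipe minus Pnpla2 0.026 with the adipocyte score. With Y counts Plin1 minus Abhd5 gave −0.23 with the macrophage score. By the longest transcript the median CPM per kb was 389.4 for Lipe, 389.6 for Mgll, 52.3 for Abhd5, 526.1 for Plin1 and 59.2 for Pde3b. For library number edgeR called 49 genes, limma 0 and DESeq2 90, and by limma the call for Adrb1 on mouse number was lost.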
